A study of Arabidopsis thaliana with 11 samples.

Results

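The class III peroxidases of *Arabidopsis thaliana* form one large gene family, and 54 of its loci are described here. The loci were listed by their gene identifiers, and array probes were assigned to them by RefSeq transcript accession. Of the 54 loci, 53 had at least 1 probe and 50 had a probe well above background on at least 2 arrays, out of 21927 loci tested in all. These 50 tested members are followed across 4 groups of seedlings.

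The study asked how whole seedlings respond to PSY1, a secreted tyrosine-sulfated peptide, and to the loss of its receptor kinase PSY1R. Seedlings of 1 week were grown in liquid half-strength Murashige and Skoog medium with sucrose, on a shaker under continuous light, and RNA was hybridized to one-colour Agilent arrays. The groups were *psy1r* given 10 nM PSY1 for 4 h (psy1r+PSY1, 2 arrays), untreated *psy1r* (3 arrays), wild type given the same treatment (WT+PSY1, 3 arrays) and untreated wild type (WT, 3 arrays). The *psy1r* line is described as a knockout of the receptor gene, with no further detail of the allele in the labels. Replicate 2 of psy1r+PSY1 was not analysed here.

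Class III peroxidases are plant-specific heme enzymes that are secreted to the cell wall and the vacuole. They use hydrogen peroxide to oxidize phenolic compounds, which polymerizes lignin and cross-links wall proteins and stiffens the wall, and they can also produce reactive oxygen species that loosen it. In roots they act in the elongation zone, where the basic helix-loop-helix protein UPB1 represses several of them, and in root hairs, xylem and the Casparian strip.

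Signal is given as log2 of the background-subtracted intensity after scaling each array to its 75th percentile, and differences are differences of group means on that scale. A gene was called when limma gave a Benjamini-Hochberg adjusted p below 0.05 over all 36372 tested probes and the change exceeded 2-fold. Between 72.3% and 81.7% of probes were well above background on each array, and no spot was saturated. The 3 slides carried 1 replicate number each, so slide and replicate number are the same thing here. Replicates 1 and 2 were much alike, with median absolute differences over all probes of 0.10 in *psy1r* and 0.09 in WT, whereas replicate 3 differed from replicate 1 by 0.37 in psy1r+PSY1, 0.37 in *psy1r* and 0.33 in WT. The 3 WT+PSY1 arrays differed from each other by only 0.08 to 0.11. The methods call the replicates biological, but the labels name no separate flasks, so the p-values measure the spread between these arrays and part of it may be technical.

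The receptor transcript was first examined as a check of the genotype. PSY1R had a signal of 3.11 and 5.91 in psy1r+PSY1 and of 4.06, 4.12 and 2.08 in *psy1r*, against 9.15, 8.95 and 9.18 in WT+PSY1 and 9.42, 9.44 and 8.77 in WT. All mutant arrays lay below all wild-type arrays, and the difference was called in both genotype comparisons (-5.79 untreated, adjusted p = 0.0104, and -4.58 with PSY1, adjusted p = 0.0344). Its probe was well above background on 1 of 2 psy1r+PSY1 and 1 of 3 *psy1r* arrays, so these are differences from measured signals close to background. With slide as a block the call with PSY1 was lost (adjusted p = 0.0827), and it held in 13 of 25 alternatives, against 21 of 25 for the untreated comparison. The highest mutant value, 5.91, came from replicate 3 of psy1r+PSY1. On that same array 11 seed storage, oil body and late embryogenesis genes averaged 10.99, whereas they averaged 4.06 to 5.92 on the other 10 arrays.

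PRX52 (AT5G05340), a peroxidase of lignin formation in the fibres of the stem, was the member with the largest differences. Its signal was 5.90, 6.03 and 6.14 in WT+PSY1, against 7.68, 7.72 and 8.06 in WT. All treated arrays lay below the untreated ones. PRX52 thus fell after PSY1 in wild type by 1.80 ± 0.21 on the log2 scale (SE), 3.48-fold, with an adjusted p of 0.0309. The within-slide differences were -1.78, -1.69 and -1.92.

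In untreated *psy1r*, PRX52 had a signal of 5.14, 5.09 and 4.93, lower still than in WT+PSY1 and again without overlap with WT. It fell by 2.76 ± 0.21 on the log2 scale relative to WT (SE, adjusted p = 0.00126), which was the largest decrease of any member in any comparison. After PSY1 the mutant had a signal of 6.08 and 6.92. Both values were above all 3 untreated *psy1r* arrays, by 1.44 ± 0.23 on average (SE). This difference was not called (adjusted p = 0.160, unadjusted p = 0.000177), although with RMA processing it was (1.52, adjusted p = 0.0427). The difference of psy1r+PSY1 from WT+PSY1 was 0.48 ± 0.23 (SE, adjusted p = 0.290).

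The PSY1 response of PRX52 thus had opposite signs in the mutant and the wild type, and the test of that difference, the interaction term, gave 3.24 ± 0.31 (SE, adjusted p = 0.0167). PRX52 was the only member called in the interaction, where 0.0593% of all loci were called and 0.041% were called higher. At an unadjusted p below 0.05 there were 9 members, where 12.3% of all loci passed. For PRX52 the interaction was 2.72 within slide 1 and 3.91 within slide 3. With slide as a block, neither the response in wild type (adjusted p = 0.0684) nor the interaction (adjusted p = 0.0634) stayed below 0.05, whereas the loss in *psy1r* did (adjusted p = 0.00660). Averaging replicates 1 and 2 of each group as if they were 1 sample ended all 3 calls. The adjusted p-values were then 0.563 for the response in wild type, 0.183 for the loss in *psy1r* and 0.829 for the interaction. With another background correction (normexp), which compresses low signals, the 3 differences were -1.13, -1.44 and 1.89 and all were called.

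**Figure D1:**
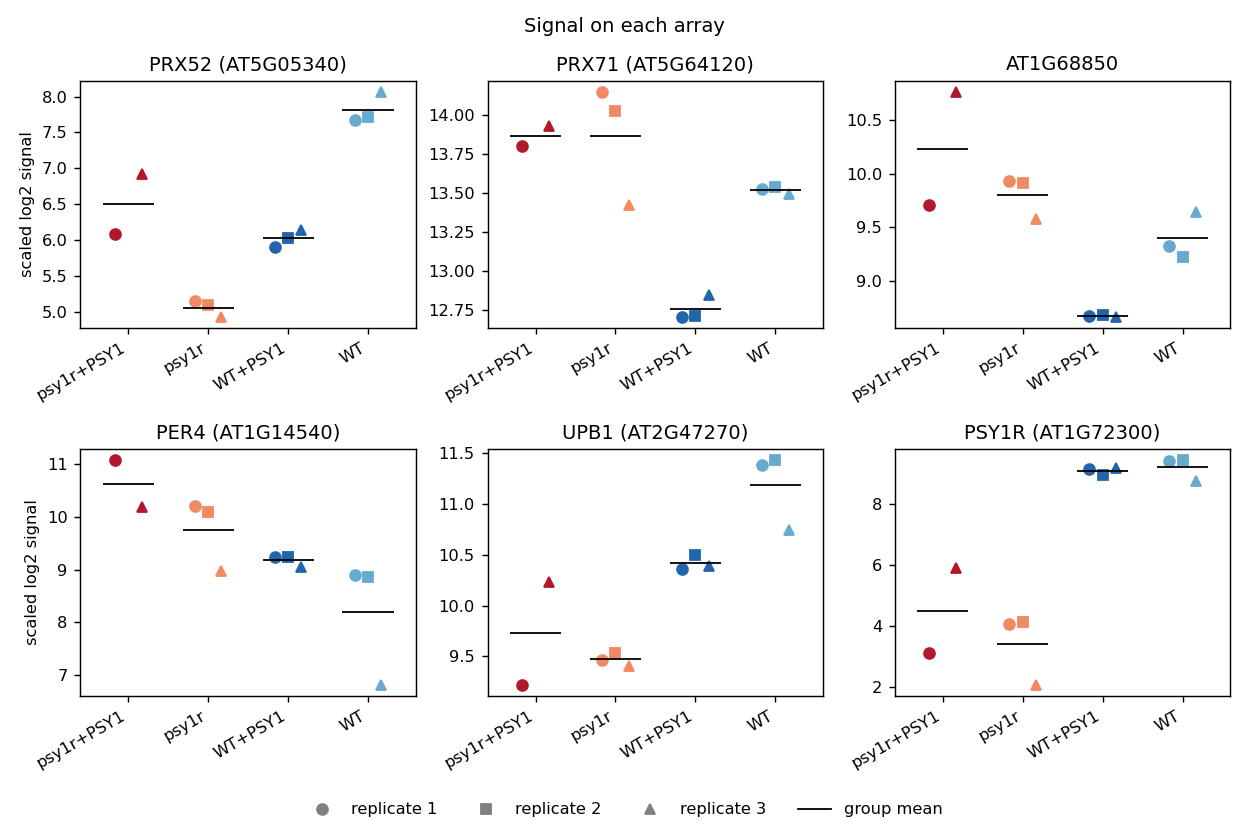
Scaled log2 signal on each array of the 3 called members PRX52, PRX71 and AT1G68850, of PER4, and of UPB1 and PSY1R, with groups along the horizontal axis, 1 symbol per replicate and a bar at the group mean. PRX52 lies at 4.93 to 5.14 in *psy1r* and at 7.68 to 8.06 in WT, with the treated groups of both genotypes between them, and each vertical axis has its own range that does not start at 0.

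Most of the family had a lower signal after PSY1 in wild type. Of the 50 members, 44 had a lower mean in WT+PSY1 than in WT, where 52.7% of all loci did, and the median difference was -0.42 against -0.03 over all loci. Only PRX52 was called, 1 of 50, where 0.219% of all loci were called and 0.0547% were called lower. At an unadjusted p below 0.05 there were 13 members, all lower, where 22.3% of all loci passed in either direction. The groups did not overlap for 22 lower members and for 1 higher member, where 24.4% of all loci were lower and 22.9% higher without overlap.

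The members with the largest decreases after PRX52 were AT4G36430 and AT4G08780. AT4G36430 had a signal of 9.19, 9.26 and 9.32 in WT+PSY1, against 10.34, 10.43 and 11.41 in WT (-1.47 ± 0.44 SE, adjusted p = 0.124). AT4G08780, the neighbour of PRX37, had 6.47, 6.44 and 6.50 in WT+PSY1, against 7.51, 7.57 and 8.33 in WT (-1.33 ± 0.43, adjusted p = 0.142). In both, the treated arrays agreed closely and replicate 3 of WT was the highest. RCI3 (AT1G05260), a cold-induced peroxidase, had 11.27, 11.30 and 11.27 in WT+PSY1 and 12.20, 12.12 and 12.18 in WT. That is a difference of -0.89 ± 0.29 (SE) with close agreement in both groups (SD 0.02 and 0.04), and the limma adjusted p was 0.147. The fit shares 1 variance per probe over all 4 groups, so the SE also holds the mutant arrays, where the SD was 0.57 in *psy1r* and 0.63 in psy1r+PSY1.

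Few members were higher after PSY1 in wild type. PER4 (AT1G14540) had a signal of 9.25, 9.23 and 9.06 in WT+PSY1, against 8.91, 8.85 and 6.82 in WT. The groups did not overlap, but most of the mean difference of 0.99 ± 0.57 came from replicate 3 of WT (adjusted p = 0.350), and the within-slide values were 0.34, 0.38 and 2.24. Its neighbour AT1G14550 differed by 0.48 and AT4G33420 by 0.25, both with overlapping groups.

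The lower signal was seen on each slide but was less marked on slide 3. Members with a lower signal in WT+PSY1 numbered 45 on slide 1, 43 on slide 2 and 30 on slide 3, with medians of -0.59, -0.51 and -0.24. On those slides 53.7%, 53.3% and 49.5% of all loci were lower. In all, 25 members were lower on all 3 slides and 1, PER4, was higher on all 3. Under the alternatives tried, the number of lower members stayed between 40 and 45. A list of 7 root genes was also lower without exception, with a median of -0.23. Their mean signal was 9.36 to 9.41 in WT+PSY1 and 9.61 to 9.80 in WT, with at least 6 of 7 above background on each array. Of 7 shoot photosynthesis genes, 5 were higher, with a median of 0.13. The share of this shift in the values of the peroxidases was not tested, and in whole seedlings fewer cells of a type and less RNA per cell cannot be told apart.

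**Figure D2:**
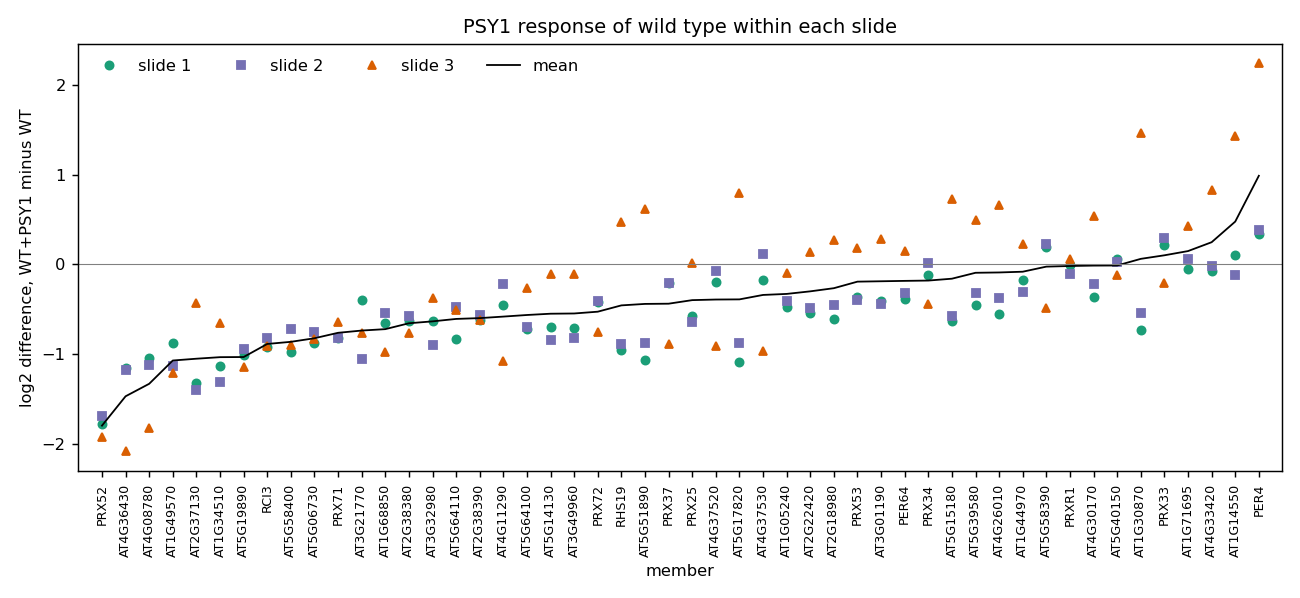
Log2 difference between WT+PSY1 and WT for each of the 50 tested members (horizontal axis, ordered by the mean) within slide 1, slide 2 and slide 3, with the mean as a line. PRX52 is at -1.69 to -1.92 on all 3 slides, and the values of slide 3 scatter most, up to 2.24 for PER4.

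In untreated *psy1r* the direction of the members depended on which arrays were compared. Of the 50 members, 30 had a lower mean in *psy1r* than in WT, where 53.5% of all loci did, with a median of -0.26 against -0.03. Without replicate 3 of *psy1r*, 18 members were lower and the median was 0.15. That fit kept replicate 3 of WT, on which the members were also low, by a median of 0.30 against the other WT arrays. Within slides 1 and 2 there were 29 and 27 lower members, with medians of -0.07 on both, but on slide 3 there were 40 with a median of -0.72. On those slides 54.1%, 55.5% and 47.5% of all loci were lower. Only PRX52 was called, 1 of 50, where 0.885% of all loci were called and 0.556% were called lower. At an unadjusted p below 0.05 there were 8 members, where 17.5% of all loci passed. Groups did not overlap for 9 lower members and 1 higher member (12.1% and 10.5% of all loci).

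After PRX52, the lowest differences were those of AT2G37130 (-1.01 ± 0.45, adjusted p = 0.305) and AT2G18980 (-1.01 ± 0.41, adjusted p = 0.273). AT2G18980 had a signal of 9.52, 9.57 and 8.12 in *psy1r*, against 10.34, 10.32 and 9.57 in WT. The largest increase was that of PER4, with 10.21, 10.09 and 8.97 in *psy1r*, against 8.91, 8.85 and 6.82 in WT (1.56 ± 0.57, adjusted p = 0.224). Every mutant array of PER4 lay above every wild-type array, and on each slide the mutant was higher by 1.23 to 2.15.

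A group of members was higher in *psy1r* on slides 1 and 2 but not on slide 3. PRX37 (AT4G08770), which limits growth when overexpressed, was higher by 1.27 and 1.39 on slides 1 and 2 and lower by 0.65 on slide 3. Its neighbour AT4G08780 showed 1.86, 1.64 and -0.74. PRX34 (AT3G49120), an apoplastic peroxidase of the defence oxidative burst, showed 1.46, 1.56 and -0.55. None of the 3 was called, with adjusted p-values of 0.373, 0.335 and 0.368. With replicate 3 of WT, *psy1r* and psy1r+PSY1 left out, a choice made after seeing the data, PRX37, AT4G08780, PRX34 and PER4 were called higher in *psy1r*.

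**Figure D3:**
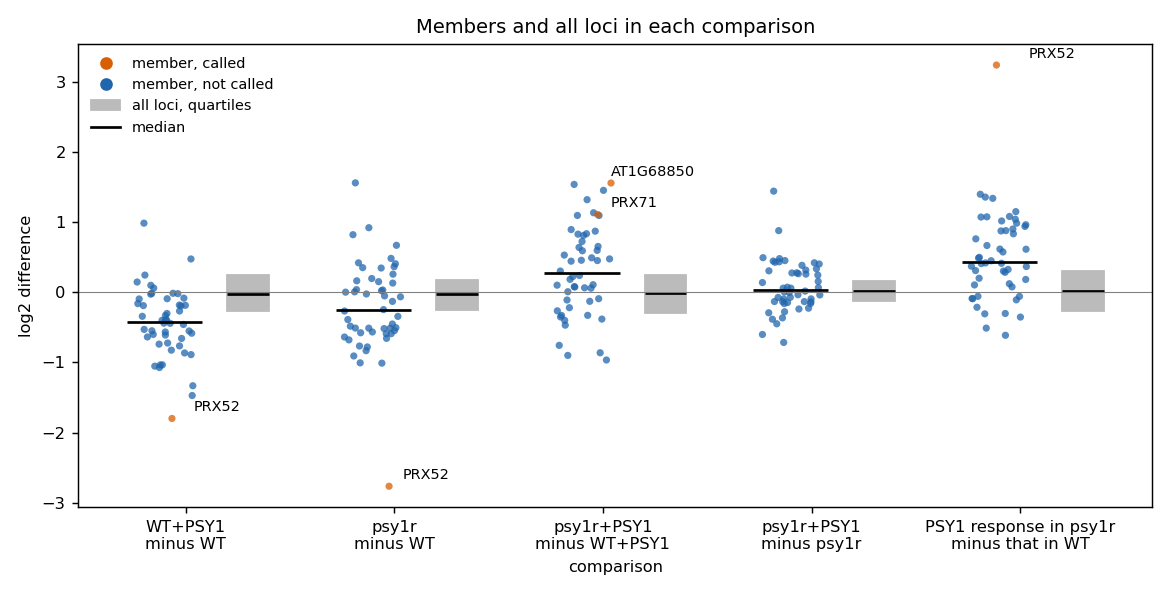
Log2 difference of each of the 50 tested members (points, called members in orange) in the 4 comparisons and the interaction, beside the quartiles of all loci (grey boxes), with bars at the medians. The members' median is -0.42 in WT+PSY1 against WT and 0.44 in the interaction, while the medians of all loci lie close to 0.

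Under PSY1 most members had higher signals in the mutant than in wild type. Of the 50 members, 35 had a higher mean in psy1r+PSY1 than in WT+PSY1, where 49.6% of all loci did, with a median of 0.27 against 0.00 over all loci. The difference was higher in 29 members on slide 1 and in 36 on slide 3. Called were 2 of 50 members, both higher, where 1.08% of all loci were called and 0.42% were called higher. At an unadjusted p below 0.05 there were 12 members, where 21.7% of all loci passed. The groups did not overlap for 24 higher and 10 lower members (23.5% and 26.1% of all loci).

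PRX71 (AT5G64120), which lignifies the wall when its integrity is disturbed, was one of the called members. It had a signal of 13.80 and 13.93 in psy1r+PSY1, against 12.71, 12.71 and 12.85 in WT+PSY1, a rise of 1.11 ± 0.20 (SE, adjusted p = 0.0337). The mutant arrays were well above the wild-type ones on both slides, by 1.10 and 1.08. Without the peptide PRX71 had 14.15, 14.03 and 13.42 in *psy1r*, against 13.53, 13.54 and 13.49 in WT. These groups overlapped, and the low WT+PSY1 values stood apart from the other 3 groups. With RMA processing the difference was 0.79 and not called (adjusted p = 0.0654), and with normexp it was 0.78, below the 2-fold limit.

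AT1G68850 was the other. It had a signal of 9.70 and 10.76 in psy1r+PSY1, against 8.67, 8.68 and 8.67 in WT+PSY1 (1.56 ± 0.28, adjusted p = 0.0345). The mutant arrays were 1.03 and 2.09 higher on their slides, so the size of the rise rested on replicate 3 of psy1r+PSY1, without which it was 1.03 and not called (adjusted p = 0.0788). Untreated, the locus had 9.93, 9.91 and 9.57 in *psy1r* and 9.33, 9.22 and 9.64 in WT. With slide as a block neither member was called (adjusted p = 0.0725 for PRX71 and 0.0728 for AT1G68850).

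Several other members differed by more than 1 without a call. AT4G08780 had 7.91 and 8.11 in psy1r+PSY1, against 6.47, 6.44 and 6.50 in WT+PSY1 (1.54 ± 0.48, adjusted p = 0.129). PER4 differed by 1.45 (adjusted p = 0.243), PRX34 by 1.32 (adjusted p = 0.162), AT2G38390 by 1.14 (adjusted p = 0.331) and AT3G21770 by 1.10 (adjusted p = 0.139). The lowest differences were those of AT5G17820 (-0.96), AT2G18980 (-0.90) and AT1G30870 (-0.86), whose adjusted p-values were all above 0.3. The 7 root genes were higher in psy1r+PSY1 than in WT+PSY1 without exception (median 0.43), 6 of 7 shoot photosynthesis genes were lower (median -0.33), 7 of 8 root hair markers were lower (median -0.74) and all 11 seed genes were higher (median 3.24), and the part of these shifts in the result was not tested.

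No member was called after PSY1 in *psy1r*, where 0.00912% of all loci were called. By mean difference 23 members were lower and 27 higher (52.5% of all loci were higher), with a median of 0.04, and at an unadjusted p below 0.05 there were 3 members, where 5.43% of all loci passed. The 2 slides disagreed. On slide 1, 38 members were lower in psy1r+PSY1, with a median of -0.46, whereas on slide 3, 45 were higher, with a median of 0.88. AT5G17820, which belongs to the root hair set, was 1.45 lower on slide 1 and 1.70 higher on slide 3. Groups did not overlap for 5 members, all higher (7.6% of all loci, and 7.28% for lower). Besides PRX52 they included PRX25 (AT2G41480), a lignin peroxidase, with 9.81 and 10.19 in psy1r+PSY1, against 9.46, 9.43 and 9.67 in *psy1r* (0.48 ± 0.22, adjusted p = 0.940). PER4 differed by 0.88 and AT5G58400 by 0.49, with AT5G58400 well above background on 1 of 2 psy1r+PSY1 and 1 of 3 *psy1r* arrays. The lowest differences were those of AT4G08780 (-0.71), AT4G26010 (-0.60) and AT5G17820 (-0.45). All 11 seed genes (median 2.16) and 6 of 7 root genes (median 0.35) were higher in psy1r+PSY1 than in *psy1r*. All 7 shoot photosynthesis genes (median -0.07) and 5 of 8 root hair markers (median -0.13) were lower. The part of these shifts in the result was not tested.

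In the interaction 39 of 50 members had a value above 0, where 52% of all loci did, with a median of 0.44 against 0.02. After PRX52 the highest values were those of AT4G36430 (1.40 ± 0.66), AT5G58400 (1.36 ± 0.41) and RCI3 (1.34 ± 0.44). None of these was called, with adjusted p-values of 0.474, 0.314 and 0.338, and AT5G58400 was also well above background on only 2 of 3 WT+PSY1 arrays. The lowest were those of AT1G14550 (-0.61), AT4G26010 (-0.51) and AT1G30870 (-0.35). Without replicate 3 of *psy1r*, but with replicate 3 of WT kept, the median of the members was 0.16 and 21 of 50 were below 0. The 7 root genes had interaction values above 0 without exception, with a median of 0.48. All 11 seed genes did too (median 2.35). All 7 shoot photosynthesis genes (median -0.20) and 5 of 8 root hair markers (median -0.31) had values below 0. The part of these shifts in the values of the peroxidases was not tested. The comparisons share arrays, as WT serves in both contrasts with untreated wild type WT+PSY1 in both contrasts that involve it and *psy1r* in both of its own, so their counts are not independent of one another.

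By role, the lignin and xylem set (PRX52, PRX72, PRX25, PRX71, AT2G22420, AT5G51890 and AT4G36430) was lower in WT+PSY1 than in WT in 7 of 7 members, with a median of -0.53. The whole family had 44 of 50 lower (median -0.42), the root hair set 7 of 8 (median -0.36) and the defence set 4 of 5 (median -0.19). In the interaction 7 of 7 members of the lignin and xylem set were above 0, from 0.31 to 3.24. So were 39 of 50 in the family, 5 of 8 in the root hair set and 5 of 5 in the defence set. PRX72 (AT5G66390), which also acts in lignification, had 10.91, 10.97 and 10.98 in WT+PSY1, against 11.34, 11.38 and 11.73 in WT (-0.53, adjusted p = 0.270). Within the lignin and xylem set only PRX52 was called in these contrasts. Of 6 xylem markers, 4 were lower in WT+PSY1 than in WT (median -0.23), 6 were lower in *psy1r* than in WT (median -0.37) and 4 had an interaction above 0 (median 0.27), none was called, and their part in the values of the set was not tested. Genes of monolignol synthesis, which supply the phenolic substrates, had a median of -0.26 with 15 of 18 lower in WT+PSY1 and 0.51 with 16 of 18 higher in psy1r+PSY1 against WT+PSY1, and none was called. The laccases, the other enzymes that polymerize lignin, had 9 of 15 lower in WT+PSY1, a median of -0.25 and no call in any comparison.

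By the probe used for each locus, the 5 defence members had a higher mean in psy1r+PSY1 than in WT+PSY1, from 0.24 for PRX33 (AT3G49110) to 1.32 for PRX34, and none was called. Of the 3 probes of AT3G32980, 1 gave -0.14. PRX33 and PRX34, which together produce the apoplastic oxidative burst, differed in their pattern. PRX33 had 9.27 and 9.34 in psy1r+PSY1 and 8.83, 8.80 and 9.06 in *psy1r*, against 9.07, 9.04 and 9.08 in WT+PSY1 and 8.85, 8.75 and 9.29 in WT. PRX34 had 12.39 and 11.65 in psy1r+PSY1 and 12.19, 12.30 and 10.62 in *psy1r*, against 10.61, 10.76 and 10.72 in WT+PSY1 and 10.73, 10.74 and 11.16 in WT. Thus PRX33 stayed within a narrow range on all arrays, whereas PRX34 was high on 4 of the 5 mutant arrays and low on replicate 3 of *psy1r*. PRX53 (AT5G06720) differed by 0.65 in psy1r+PSY1 against WT+PSY1 (adjusted p = 0.103). The NADPH oxidases, which supply superoxide for hydrogen peroxide, had 5 of 8 lower in WT+PSY1, and the catalases, ascorbate peroxidases and superoxide dismutases had 9 of 17 lower, with medians of -0.26 and -0.01 and no call.

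PER64 (AT5G42180), which polymerizes the lignin of the Casparian strip, had 9.75 and 9.38 in psy1r+PSY1, 9.88, 9.76 and 8.25 in *psy1r*, 9.12, 9.11 and 9.09 in WT+PSY1 and 9.50, 9.43 and 8.94 in WT. Its values overlapped between WT+PSY1 and WT, and it was called in no comparison. Of 7 endodermis and Casparian strip genes, 5 were lower in WT+PSY1 than in WT (median -0.23), 6 were lower in *psy1r* than in WT (median -0.24) and 4 were higher in psy1r+PSY1 than in WT+PSY1 (median 0.33), none was called, and their part in the values of PER64 was not tested. By the probe used for each locus, PRXR1 (AT4G21960) had the narrowest range of any member, 16.84 to 17.27 on all 11 arrays. Among its other probes, 1 ranged from 16.28 to 16.62, 1 from 11.40 to 12.35 and 1 from 5.98 to 7.55. The probe used differed by -0.02 in WT+PSY1 against WT. Of the 6 PRXR1 probes, 1 was 0.33 higher in that contrast while the others were lower.

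UPB1, the repressor of peroxidases in the root elongation zone, was lower in the mutant. It had 9.22 and 10.24 in psy1r+PSY1 and 9.46, 9.54 and 9.41 in *psy1r*, against 10.36, 10.49 and 10.39 in WT+PSY1 and 11.39, 11.43 and 10.75 in WT. The fall in *psy1r* relative to WT was 1.72 ± 0.26 on the log2 scale and called (adjusted p = 0.0219, but 0.0523 with slide as a block). This call held in 16 of 26 alternatives. The difference of psy1r+PSY1 from WT+PSY1 was -0.69 and not called (adjusted p = 0.234), with -1.14 within slide 1 and -0.16 within slide 3. The difference of WT+PSY1 from WT was -0.77 (adjusted p = 0.153). UPB1 has 2 probes on the array, and the values are those of the probe used for the locus. Of the members listed with UPB1, AT5G17820 differed by -0.91 in *psy1r* against WT (adjusted p = 0.627). AT4G11290, the other, had 13.46, 13.51 and 13.20 in *psy1r*, against 12.99, 12.97 and 13.75 in WT, and these values overlapped. Of the 15 tested class III peroxidases outside the 54 loci, 1 was called in *psy1r* against WT, AT5G47000 (-1.56, adjusted p = 0.0401), and none in the other comparisons. The 16 extensins and LRX proteins, wall proteins that peroxidases cross-link, included no called gene, with 11 higher in WT+PSY1 and a median of 0.18.

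**Figure D4:**
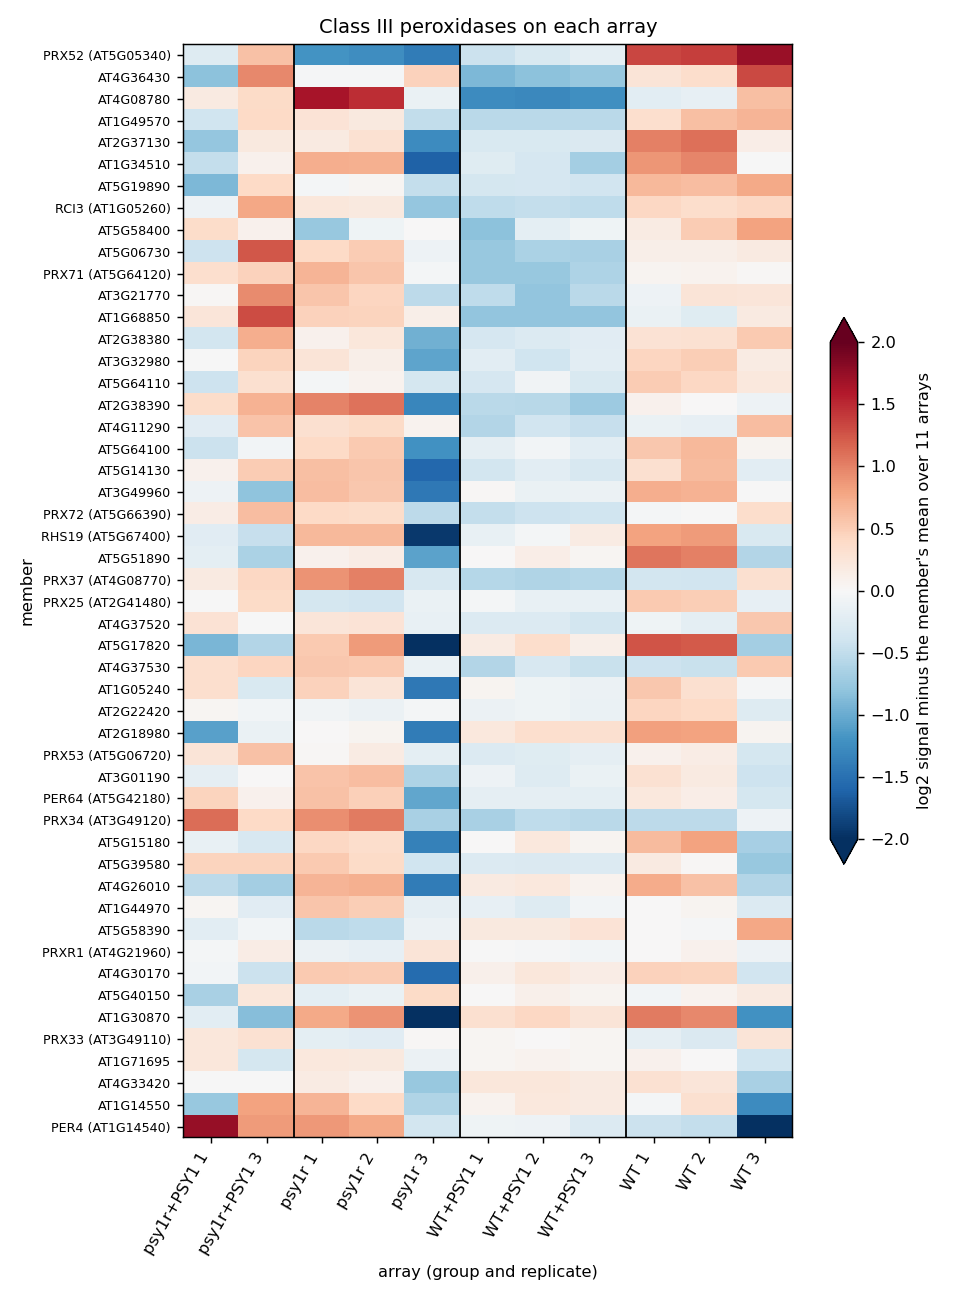
Signal of each of the 50 tested members (vertical axis, ordered by the difference between WT+PSY1 and WT) on each of the 11 arrays (horizontal axis, grouped), as the log2 difference from the member's own mean over all arrays. The colour scale ends at -2 and 2, and replicate 3 of *psy1r* is the array with the most low values, with 25 members more than 1 below its 2 companion arrays.

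Members varied more between replicates in the untreated groups than after PSY1 in wild type. The median SD of a member was 0.30 in psy1r+PSY1, 0.58 in *psy1r*, 0.07 in WT+PSY1 and 0.39 in WT. Replicates 1 and 2 differed by a median of 0.07 over the members in *psy1r* and in WT. Replicate 3, however, differed from replicate 1 by 1.08 in *psy1r* and 0.61 in WT, both more than for all probes (0.37 and 0.33).

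On replicate 3 of *psy1r*, 25 of 50 members were more than 1 below the mean of the other 2 arrays, where 7.91% of all loci were, and 42 of 50 were lower. On replicate 3 of WT, 8 members were more than 1 below, where 6.51% of all loci were. Members of the root hair set were among them. RHS19 (AT5G67400), a root hair specific gene, had 6.67, 6.66 and 4.09 in *psy1r* and 6.82, 6.86 and 5.72 in WT. AT1G30870 had 9.31, 9.45 and 6.15 in *psy1r* and 9.58, 9.51 and 7.33 in WT. AT5G17820 had 10.65, 10.96 and 7.83 in *psy1r* and 11.38, 11.34 and 9.44 in WT. In all 3 genes replicate 3 was the lowest of its group.

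The 8 tested members of the root hair set had a median deviation of -2.05 on replicate 3 of *psy1r* and of -0.99 on replicate 3 of WT, but of -0.10 on replicate 3 of WT+PSY1. A list of 8 other root hair genes moved with them, at -2.18, -1.18 and 0.17. Its mean signal was 6.80 to 7.01 in psy1r+PSY1, 5.79 to 7.98 in *psy1r*, 7.46 to 7.71 in WT+PSY1 and 6.75 to 8.15 in WT. At least 6 of the 8 genes were above background on every array. On replicate 3 of *psy1r* laccases (-1.02), extensins (-0.88), endodermis genes (-0.78), xylem markers (-0.70) and NADPH oxidases (-0.61) were also lower. Monolignol genes (-0.39) and root genes (-0.26) were lower by less, while shoot photosynthesis genes differed by 0.07 and seed genes by 0.22. On replicate 3 of WT xylem markers (-1.01) and laccases (-0.62) were lower, while monolignol genes (0.22) and extensins (0.14) were higher. The part of root hair content in the values of the peroxidases was not tested. Of the 8 tested members of the root hair set, 7 were lower in *psy1r* than in WT, the median was -0.51, and none was called in any comparison.

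**Figure D5:**
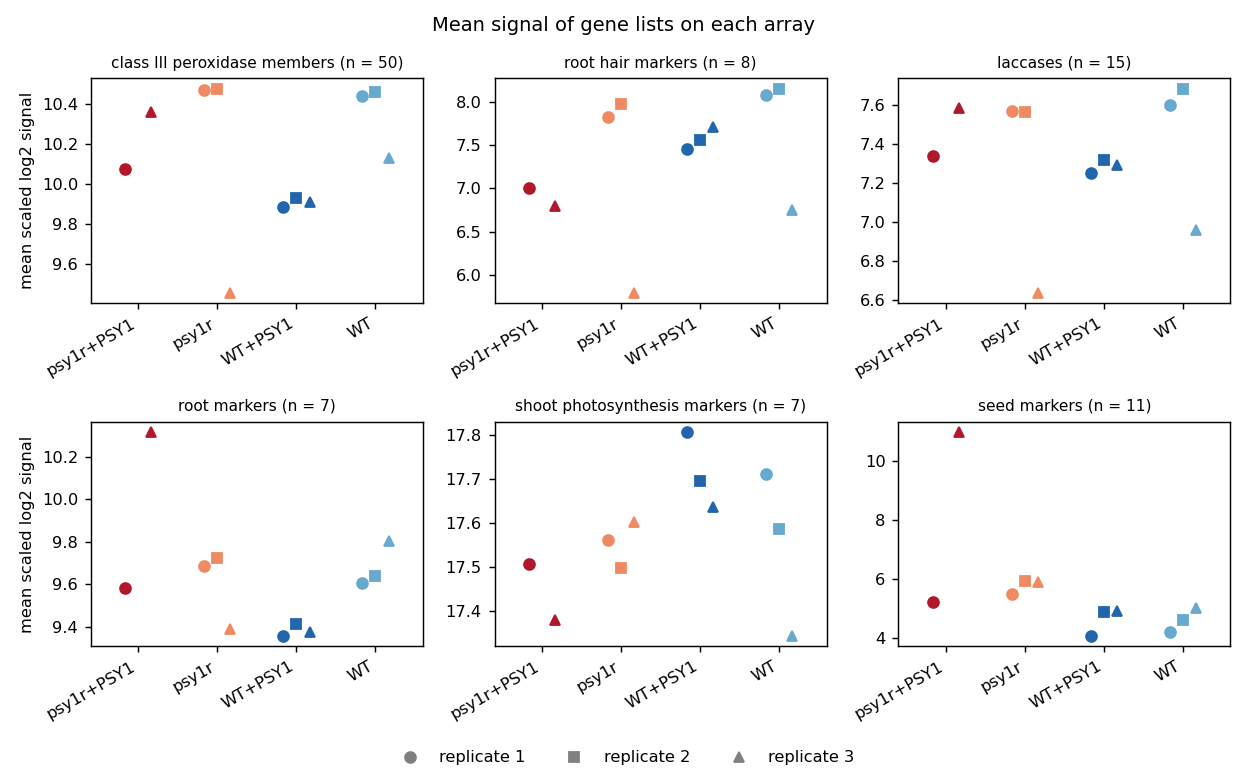
Mean scaled log2 signal on each array of the 50 tested members and of the lists of root hair genes, laccases, root, shoot photosynthesis and seed genes, with groups along the horizontal axis and 1 symbol per replicate. The members average 9.45 to 10.48 in *psy1r* and 9.88 to 9.93 in WT+PSY1, the root hair list is lowest on replicate 3 of *psy1r* at 5.79, and the seed list reaches 10.99 on replicate 3 of psy1r+PSY1.

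Probes of 13 members could be compared within the locus. In WT+PSY1 against WT their signs differed in 2 loci, PRXR1 and AT5G39580, and the widest gap was 0.84 in AT5G64100, whose probes gave -0.56 and -1.41. In *psy1r* against WT the signs differed in 4 loci and with PSY1, between psy1r+PSY1 and WT+PSY1, in 6. The 3 called members have 1 probe each. AT3G32980 had 3 probes with -0.64, -0.04 and -0.74 in WT+PSY1 against WT.

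The members lie in part side by side, with 20 of the 54 in 9 runs of adjacent genes. PRX71 is in such a run with AT5G64100 and AT5G64110, and PRX37 with AT4G08780, and whether a probe also reads the transcript of a neighbour was not tested. Neighbours did not always move alike. In psy1r+PSY1 against WT+PSY1, PRX71 rose by 1.11 while AT5G64100 differed by -0.09.

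Of the other members, PRX2 (AT1G05250) had no probe matched. AT1G77100, AT5G19880 and PER36 (AT3G50990), a peroxidase of the seed coat, had a probe that was not well above background on enough arrays to be tested. AT1G34510 was above background on 5 arrays, AT5G58400 on 7 and RHS19 on 10, and the other 47 tested members on all 11. AT1G34510 was above background on neither psy1r+PSY1 array, where it had 3.33 and 3.88, against 2.17 to 4.53 in *psy1r* and 3.12 to 3.55 in WT+PSY1. By the means its difference of psy1r+PSY1 from *psy1r* was -0.13, with overlapping groups (adjusted p = 0.9999). With slide as a block the difference was 0.07, of the opposite sign. No fold is given against *psy1r* or WT+PSY1. The highest mean probe signals, from 13.26 to 17.01, were those of PRXR1, AT3G32980, AT5G39580, PRX71, AT1G71695 and AT1G49570, and the lowest, from 3.80 to 7.61, those of AT1G34510, AT5G58400, RHS19, PRX52, AT1G14550 and AT5G15180. These are signals of probes and not amounts of transcript.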

How the data were processed

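The authors hybridized Cy3-labelled RNA and deposited the scanner output of 11 arrays, written by Agilent Feature Extraction 10.7.3.1 (file headers, and named in the submitters' processing notes), with raw and background-subtracted spot intensity and quality flags, and a table of processed log2 values of the same arrays. The methods name RMA in GeneSpring, but the deposited log2 values correlated at 0.99987 to 0.99994 with intensity scaled to the 75th percentile and centred on each row, and at 0.90 to 0.97 with RMA steps. The background-subtracted intensity was scaled to each array's 75th percentile, converted to log2, and averaged over spots of a probe, after leaving out controls and outlier-flagged spots (3 to 97 per array). The number of arrays limits the precision.

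Of 43603 probes, 34358 were matched to a locus through RefSeq transcripts of the TAIR10.1 annotation. The test was that of limma (version 3.58.1, R version 4.3.3), with linear models and empirical Bayes moderation over all 4 groups, which share one variance per probe, for the 36372 probes that were well above background on 2 or more arrays. The interaction is the PSY1 response in *psy1r* minus that in WT. Each locus was represented by its probe with the highest mean. The fit was tested on simulated arrays. Their noise was independent between arrays, with the same spread of a probe in every group. The simulation therefore did not cover replicates 1 and 2 being alike and replicate 3 differing. Named are called members, the 3 highest and 3 lowest differences in each comparison, members with the highest and lowest signal and members with known roles. AT2G38390, AT3G21770 and PRX37 were named after their values were seen. Members and lists were chosen with earlier results of these data known. Same-numbered arrays of WT+PSY1 and WT deviated together at r of 0.08, -0.15 and 0.30, those of *psy1r* and WT at 0.24, -0.08 and 0.37, those of psy1r+PSY1 and WT+PSY1 at 0.30 and 0.09, those of psy1r+PSY1 and *psy1r* at 0.32 and 0.17, those of *psy1r* and WT+PSY1 at 0.36, 0.50 and 0.40 and those of psy1r+PSY1 and WT at 0.10 and 0.19. Not every pair was over 0.1, so the numbers were not treated as pairing. Alternatives were quantile, RMA and normexp normalization, the authors' processed values, array weights, an unmoderated test, slide as a block, replicates 1 and 2 averaged, and arrays left out. The unmoderated test was also fitted on the compared groups alone, except in the interaction, so its counts reflect both changes.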

Additional observations from a re-analysis of the deposited data

Results flagged for a closer look

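The PSY1 response of PRX52 (AT5G05340) differed between the genotypes by the test of the interaction, with a value of 3.24 on the log2 scale (psy1r+PSY1 minus *psy1r*, less WT+PSY1 minus WT). The response was 1.44 in *psy1r*, with 2 psy1r+PSY1 arrays and no call by limma (adjusted p = 0.160), and -1.80 in WT. The limma adjusted p of the interaction was 0.0634 with slide as a block and 0.829 with replicates 1 and 2 averaged. Its call held in 17 of 26 alternatives. No group held enough arrays for a test of single arrays against their group.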

How the results depend on the processing

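The counts below come without the share of all loci called under each alternative, so they do not set the members against other loci. In the main fit that share was 0.219% in WT+PSY1 against WT and 0.885% in *psy1r* against WT. It was 1.08% in psy1r+PSY1 against WT+PSY1, 0.00912% in psy1r+PSY1 against *psy1r* and 0.0593% in the interaction. The number of called members changed with the treatment of the replicates more than with the scaling. In WT+PSY1 against WT it was 1, and 0 with the replicate block, 0 with replicates 1 and 2 averaged, 5 with only the compared groups in the fit, 7 with array weights, 3 with an unmoderated test, 6 without adjustment of p, 0 to 4 with 1 array left out and 7 without replicate 3 of WT, *psy1r* and psy1r+PSY1. In *psy1r* against WT it was 1, and 5 with array weights, 0 with an unmoderated test, 0 with replicates 1 and 2 averaged, 3 without adjustment, 1 to 5 with 1 array left out and 5 without the 3 arrays. In psy1r+PSY1 against WT+PSY1 it was 2, and 1 with RMA steps, 1 with normexp, 0 with the replicate block, 0 with averaging, 7 without adjustment, 0 to 6 with 1 array left out and 7 without the 3 arrays. In psy1r+PSY1 against *psy1r* it was 0, and 1 with RMA steps, 1 without adjustment, 0 to 1 with 1 array left out and 8 without the 3 arrays. In the interaction it was 1, and 0 with the replicate block, 0 with averaging, 6 without adjustment, 0 to 4 with 1 array left out and 2 without the 3 arrays. The omission of the 3 arrays was chosen after seeing the data and leaves psy1r+PSY1 with 1 array, assumed to vary like the other groups. PRX52 kept its call in 17 of 26 alternatives in WT+PSY1 against WT, in 24 in *psy1r* against WT and in 17 in the interaction, PRX71 in 15 and AT1G68850 in 14, and none reversed. Leaving out any one array of WT+PSY1, replicate 1 or 2 of WT or replicate 1 or 2 of *psy1r* ended the call of PRX52 in WT+PSY1 against WT and in the interaction. The calls of PRX71 and AT1G68850 were lost without any one array of WT+PSY1, without replicate 1 or 2 of WT, replicate 2 of *psy1r* or replicate 3 of psy1r+PSY1, and that of AT1G68850 also without replicate 1 of *psy1r*. The number of lower members ranged from 40 to 45 in WT+PSY1 against WT, 18 to 35 in *psy1r* against WT, 13 to 21 in psy1r+PSY1 against WT+PSY1, 11 to 38 in psy1r+PSY1 against *psy1r* and 5 to 21 in the interaction. The cause of these changes was not tested.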
